A study of Mus musculus with 12 samples.

Results

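Interferon-stimulated genes are genes whose transcription rises when a cell is exposed to interferon. Here 44 of them were followed, of 55357 gene identifiers listed in each of 2 count tables, one from mouse liver and one from RAW264.7 cells. They were chosen by symbol from a list of known interferon-stimulated genes, with earlier results of these data known. Shares of them set beside shares of all genes are therefore descriptive. Each symbol matched 1 identifier in both tables. Levels were compared between esculetin and control within each table. The study asked how esculetin, a plant coumarin, acts on the handling of lipids, and RNA-seq was done on 12 libraries in 4 groups of 3. The liver groups were wild-type male C57BL6/J mice aged 8 to 9 weeks, gavaged for 7 days with esculetin at 90 mg/kg/day or with 2.5% Tween-80 alone. All of these mice ate a diet with 10% of its energy from fat for 4 days and one with 60% for the last 3 days, and each liver sample pooled 2 mice. The cell groups were RAW264.7 cells, 1 mouse macrophage line, held for 24 hours with DIL-oxLDL, a dye-labelled oxidized low-density lipoprotein, at 25 µg/mL. They received esculetin at 40 µg/mL or, as the control, DMSO. The labels did not say whether the 3 cell samples of a group were separate cultures, so the p-values measure the spread between these samples, which may be technical.

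Type I interferons bind the receptor chains Ifnar1 and Ifnar2, whose kinases Jak1 and Tyk2 phosphorylate proteins of the STAT family. One of these, Stat2, joins Irf9 in a complex that binds interferon-stimulated response elements in promoters, and the induced proteins block viral replication at many steps. Macrophages, among them the Kupffer cells of the liver, carry the sensors of foreign nucleic acid that set off interferon production and respond to interferon themselves.

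The promoters of the 44 genes were read to show what the genes share besides their name. The core of the response element was searched on both strands as the letters GAAA, any 2 bases and GAAA again, from 250 bases before to 50 bases after the annotated start of transcription. It occurred near the start of 24 of the 44 genes, a share of 54.5% (exact 95% interval 38.8% to 69.6%), against 3.84% of 21770 protein-coding genes. A stricter form, GAAAC, any base and GAAA, occurred in 13 of the 44 genes, or 29.5%, against 0.689% of all. The dyad TTCNNNGAA, a general binding motif of the STAT family that is equal to its own reverse complement, occurred in 8 of the 44, or 18.2% (interval 8.19% to 32.7%), against 8.81%. A match describes letters and does not show binding. The 250 bases before the start are given below for 4 genes, on the strand of the gene in GRCm39, with each copy of the core in capitals. Isg15 (chr4:156285304-156285553, minus strand), Ifit1 (chr19:34618021-34618270, plus strand) and Rsad2 (chr12:26506452-26506701, minus strand) hold the core, rose strongly in the cells and are shown. Cmpk2 and Oasl2 rose more than Isg15 and held no copy in the searched window. Ifit1, Rsad2 and Cmpk2 passed the filter on low counts only through the esculetin libraries, as described below. Bst2 (chr8:71990115-71990364, minus strand) is shown because it carries the same core and fell.
Isg15: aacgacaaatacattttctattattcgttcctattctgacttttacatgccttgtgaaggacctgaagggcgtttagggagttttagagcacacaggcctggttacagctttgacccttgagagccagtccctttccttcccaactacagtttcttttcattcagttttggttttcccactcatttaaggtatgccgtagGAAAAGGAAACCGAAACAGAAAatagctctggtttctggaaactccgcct
Ifit1: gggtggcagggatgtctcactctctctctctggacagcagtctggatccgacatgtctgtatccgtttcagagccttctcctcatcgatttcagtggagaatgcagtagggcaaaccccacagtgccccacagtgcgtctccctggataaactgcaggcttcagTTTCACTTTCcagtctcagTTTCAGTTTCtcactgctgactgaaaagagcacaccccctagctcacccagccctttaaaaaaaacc
Rsad2: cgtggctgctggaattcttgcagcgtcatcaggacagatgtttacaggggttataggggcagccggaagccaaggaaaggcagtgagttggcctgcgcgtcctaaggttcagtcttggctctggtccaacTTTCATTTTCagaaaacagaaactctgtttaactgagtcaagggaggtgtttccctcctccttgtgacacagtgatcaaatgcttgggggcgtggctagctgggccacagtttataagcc
Bst2: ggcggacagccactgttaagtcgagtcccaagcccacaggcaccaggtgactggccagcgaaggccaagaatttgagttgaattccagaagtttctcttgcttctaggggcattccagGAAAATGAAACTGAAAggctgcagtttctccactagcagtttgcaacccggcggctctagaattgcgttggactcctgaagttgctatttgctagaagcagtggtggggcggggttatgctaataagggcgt

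Isg15 held 3 overlapping copies, the nearest beginning 38 bases before the start, and Bst2 held 2 overlapping copies, the nearest at 126 bases. Ifit1 held 2 copies on the other strand, at 86 and 67 bases, where the core reads as its reverse complement, and Rsad2 held 1, at 120 bases. The neighbouring genes Ifit3 and Ifit3b are shown for the stretch around the copy nearest the start (chr19:34560792-34560831 and chr19:34585188-34585227, plus strand), since their coding sequences are also close copies and reads may be shared between them.
Ifit3: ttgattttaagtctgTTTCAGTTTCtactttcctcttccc
Ifit3b: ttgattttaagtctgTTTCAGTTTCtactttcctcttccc
These 40 bases were identical in both genes, although the copy lay 92 bases before the start of Ifit3 and 125 bases before that of Ifit3b. Of the 24 genes with a match, 13 held 1 copy, 8 held 2 and 3 held more, and in 18 at least 1 copy began before the start.

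**Figure D1:**
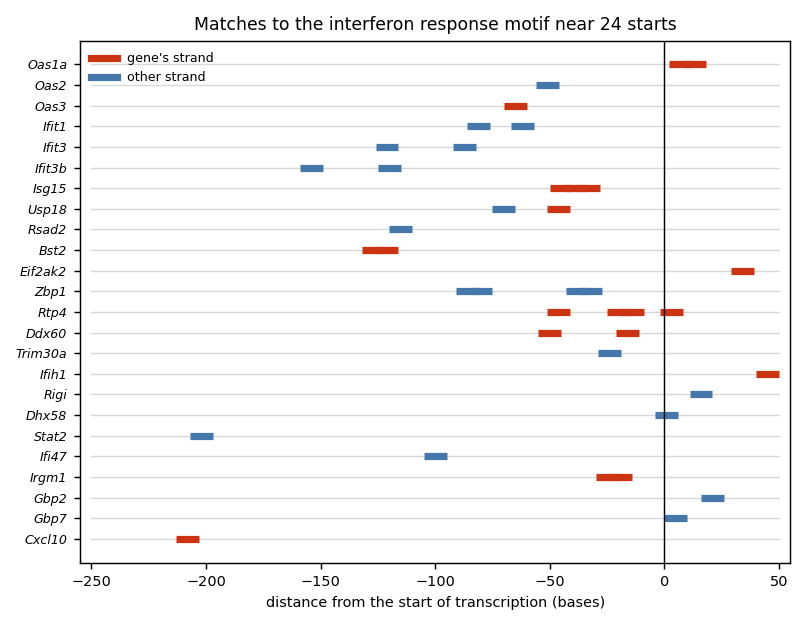
Position of each copy of the response element core relative to the start of transcription, in bases, for the 24 interferon-stimulated genes with a match. Red marks lie on the gene's strand and blue marks on the other, and the 40 marks sit on both sides of the start, with 6 genes holding copies only at or after it.

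The libraries held 14659876 to 20346460 counts in the liver and 13752842 to 20001959 in the cells, and levels are given as CPM, counts scaled by library totals and TMM factors. Liver control replicate 1 stood apart from the other 5 liver libraries, at -47.9 on the first principal component against -3.44 to 19.4, so liver results are also given without it. The treatments of the cells were split by a first component with 77.9% of their variance. A list of 5 hepatocyte markers summed to at least 102657 CPM in every liver library, and in the cells to at most 0.146 CPM, with Apoa1, Ttr and Cps1 at 0. The 7 markers of monocytes and macrophages summed to 1521 to 1668 CPM in control cells.

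In the cells, esculetin went with a rise of nearly all interferon-stimulated genes. Of the 39 that passed the filter on low counts, 36 rose and 1, Bst2, fell, by the quasi-likelihood test of edgeR at an adjusted p under 0.05. Among all 13277 tested genes 28.7% rose and 29.0% fell. More than 2-fold rises were seen for 30 of the 39, against 10.6% of all tested genes. The groups did not overlap, with every esculetin library above every control library, for 34 of the 39, against 31.0% of all. The median log2 fold change was 2.08, against -0.01 over all tested genes. By the study's thresholds, a p under 0.05 and a fold change over 1.5, applied here to unadjusted p-values of limma-voom, 34 rose, against 19.2% of all genes. The filter was passed only through the esculetin libraries by 8 genes, Ifit1, Ifit3, Rsad2, Cmpk2, Zbp1, Trim30a, Gbp7 and Cxcl10, which therefore had to differ. All 8 are part of the counts of called, over 2-fold and non-overlapping genes above, and of the median. This limit also holds for their values given below. Of the other 31, 28 rose and 1 fell. The largest log2 rises were those of Rsad2 at 5.80, Ifit1 at 5.52 and Trim30a at 5.23, all 3 among these 8 genes. Among the other 31 the largest was that of Oasl2 at 4.62. The markers of monocytes and macrophages moved alongside, with 6 of 6 tested rising and a sum of 4330 to 6685 CPM in the esculetin cells. The 6 Kupffer cell markers were low and went the other way. They summed to 2.02 to 2.21 CPM in control and 0.293 to 1.02 CPM with esculetin, and the 1 tested fell. The part of both lists in the result was not tested. Exons of 8 genes, Parp9, Irf7, Irf9, Tor3a, Ifi35, Ifi47, Igtp and Cxcl10, overlap those of another protein-coding gene, so reads may be shared there.

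All 5 genes of the OAS family, enzymes that make 2'-5' oligoadenylates on double-stranded RNA and so activate RNase L, or are related to these enzymes, rose. Oas2 had 30.9, 30.3 and 29.9 CPM in the control cells and 99.4, 129 and 144 CPM in the esculetin cells. Its log2 fold change of 2.03 (SE 0.13, adjusted p = 3.82e-07) had the smallest p of the 44 genes. The control libraries were nearly equal and lay far below every esculetin library. Oasl2 went from 1.19, 1.45 and 0.827 CPM to 12.7, 32.6 and 39.4 CPM (log2 fold change 4.62, SE 0.41, adjusted p = 4.34e-06). Oas3 had 129, 141 and 136 CPM in control and 186, 271 and 276 CPM with esculetin (log2 fold change 0.85, SE 0.13, adjusted p = 0.000234). Neither Oasl2 nor Oas3 showed overlap between the groups. Oas1a rose by a log2 fold change of 1.65 and Oasl1 by 0.83.

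The IFIT genes encode tetratricopeptide proteins that bind viral RNA lacking the host cap methylation. Ifit2 had 3.94, 4.20 and 3.79 CPM in control and 13.2, 20.6 and 15.8 CPM with esculetin (log2 fold change 2.06, SE 0.18, adjusted p = 4.47e-06). Ifit1, described above for its promoter, went from 0.156, 0.376 and 0.146 CPM to 3.73, 10.1 and 17.5 CPM (log2 fold change 5.52, SE 0.62, adjusted p = 2.20e-05). Ifit3 went from 0.104, 0.108 and 0.341 CPM to 0.732, 2.25 and 1.39 CPM (log2 fold change 2.92, SE 0.60, adjusted p = 0.00149). In all 3 the lowest esculetin library lay above the highest control library. Ifit3b had no count in any control library and 5, 10 and 35 counts with esculetin. With a floor of 3 counts over the group, that was at least 21.1-fold higher, and it was too low for the test.

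The ISG15 group holds the ubiquitin-like protein Isg15, its protease Usp18, which also damps receptor signalling, and Herc6, the ligase that attaches Isg15 in mice. Isg15 had 0.726, 0.861 and 0.584 CPM in control and 3.81, 14.0 and 21.3 CPM with esculetin, an 18.1-fold rise (log2 fold change 4.18, SE 0.55, adjusted p = 7.14e-05). Usp18 went from 7.31, 6.29 and 5.06 CPM to 13.8, 34.0 and 46.5 CPM (log2 fold change 2.34, SE 0.35, adjusted p = 0.000165). Herc6 went from 3.06, 2.04 and 2.19 CPM to 9.73, 13.6 and 11.6 CPM (log2 fold change 2.26, SE 0.21, adjusted p = 5.97e-06). All 3 rose with no overlap, and esculetin replicate 1 was the lowest of the esculetin libraries in each.

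Among 17 other antiviral effectors, 15 were tested, 14 rose and Bst2 fell. Xaf1, a proapoptotic antagonist of XIAP, had 1.66, 2.47 and 2.53 CPM in control and 14.8, 22.4 and 23.1 CPM with esculetin (log2 fold change 3.18, SE 0.22, adjusted p = 8.58e-07). Samd9l, a restriction factor of poxviruses, went from 4.61, 2.80 and 2.77 CPM to 23.1, 36.9 and 34.1 CPM (log2 fold change 3.21, SE 0.23, adjusted p = 9.31e-07). Rtp4, which binds viral RNA and also escorts receptors to the membrane, went from 3.21, 3.17 and 3.02 CPM to 15.1, 24.6 and 29.9 CPM (log2 fold change 2.89, SE 0.23, adjusted p = 2.18e-06). The 3 genes rose in every esculetin library. Rsad2, or viperin, which makes a chain-terminating nucleotide, and its neighbour Cmpk2, a mitochondrial nucleotide kinase, rose by log2 fold changes of 5.80 and 4.69. Zbp1, a sensor of Z-form nucleic acid, rose by 3.37, Mx2, a dynamin-like GTPase, by 2.16, and Eif2ak2, the kinase PKR that halts translation, by 1.53. Smaller log2 rises were those of Sp100, a nuclear body protein, at 0.56 and Tor3a, a torsin ATPase, at 0.46.

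Bst2, or tetherin, which holds budding virions at the cell surface, moved against the others. It had 96.4, 116 and 110 CPM in control and 60.7, 75.2 and 75.8 CPM with esculetin, a 1.52-fold fall (log2 fold change -0.61, SE 0.11, adjusted p = 0.0006). Every esculetin library lay below every control library. Per kilobase of exon, Bst2 was the most abundant of the 44 genes in control cells, at 88.5 RPKM, ahead of Tor3a at 22.5 and Oas3 at 19.2 RPKM. It remained the highest with esculetin, at 58.1 RPKM, ahead of Oas3 at 34.6 RPKM.

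The RNA sensors detect viral RNA in the cytosol. Ifih1, the sensor MDA5 of long double-stranded RNA, had 7.72, 6.56 and 5.30 CPM in control and 18.5, 28.2 and 25.7 CPM with esculetin (log2 fold change 1.89, SE 0.19, adjusted p = 8.65e-06). Rigi, which detects RNA with a 5' triphosphate, went from 42.7, 45.0 and 46.4 CPM to 69.5, 127 and 133 CPM (log2 fold change 1.30, SE 0.19, adjusted p = 0.000164). Both rose without overlap. Dhx58, the regulator LGP2 that lacks the signalling domain of the other sensors, had 32.4, 33.2 and 36.0 CPM in control and 34.9, 42.1 and 40.6 CPM with esculetin. Its groups overlapped and its log2 fold change of 0.21 (SE 0.11, adjusted p = 0.113) did not pass the test.

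The 3 transcription factors had log2 fold changes of 0.72 to 1.02, below the median of 2.08 of all 39 genes. Irf9, the DNA-binding part of the complex with Stat2, had 32.8, 35.9 and 38.7 CPM in control and 57.2, 74.6 and 76.6 CPM with esculetin (log2 fold change 0.96, SE 0.12, adjusted p = 5.28e-05). Irf7, which drives the genes of interferon alpha, went from 32.8, 40.7 and 44.5 CPM to 49.9, 95.7 and 93.2 CPM (log2 fold change 1.02, SE 0.21, adjusted p = 0.00149). Stat2 went from 61.0, 64.2 and 68.8 CPM to 76.4, 119 and 125 CPM (log2 fold change 0.72, SE 0.15, adjusted p = 0.00193). None of the 3 overlapped between groups, and esculetin replicate 1 lay closest to the controls in each.

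The interferon-inducible GTPases attack the vacuoles of intracellular pathogens. Gbp7 had 0.0518, 0.0538 and 0.146 CPM in control and 1.46, 2.45 and 2.96 CPM with esculetin (log2 fold change 4.65, SE 0.54, adjusted p = 2.75e-05). Behind these values stood 5 counts in control and 109 with esculetin, a ratio of 27.5 with a 95% counting interval of 11.4 to 86.5. Irgm1, a regulator of the other GTPases, went from 12.6, 11.8 and 9.78 CPM to 27.2, 49.9 and 72.7 CPM (log2 fold change 2.14, SE 0.28, adjusted p = 6.96e-05). Igtp, or Irgm3, went from 1.35, 1.13 and 1.75 CPM to 3.95, 6.07 and 7.86 CPM (log2 fold change 2.08, SE 0.30, adjusted p = 0.000132). No group overlap was seen in these 3 genes. Ifi47 had 1.76, 2.10 and 1.31 CPM in control and 1.83, 2.59 and 3.18 CPM with esculetin. Its groups overlapped, and the log2 fold change of 0.57 (SE 0.31, adjusted p = 0.134) did not pass the test.

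Of the ADP-ribosyltransferases, Parp14, which acts in macrophage signalling, had 14.0, 10.4 and 13.9 CPM in control and 46.1, 78.9 and 91.1 CPM with esculetin (log2 fold change 2.49, SE 0.22, adjusted p = 4.39e-06). Parp9, its neighbour on chromosome 16, went from 25.7, 23.3 and 24.8 CPM to 40.2, 55.8 and 65.4 CPM (log2 fold change 1.13, SE 0.16, adjusted p = 9.28e-05). Both rose in every esculetin library. Cxcl10, a chemokine that draws T cells, went from 0.415, 0.699 and 0.486 CPM to 5.71, 8.66 and 16.7 CPM, a 19.4-fold rise (log2 fold change 4.28, SE 0.43, adjusted p = 1.01e-05).

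Besides Ifit3b, 4 genes had too few counts in the cells for the test. Ddx60, a helicase that aids RNA sensing, had 1, 0 and 1 counts in control and 4, 25 and 29 with esculetin, a ratio of 36.6 after scaling (95% counting interval 9.69 to 310). Gbp3 had 0, 1 and 3 counts in control and 7, 7 and 9 with esculetin, a ratio of 7.26 (2.48 to 28.9). Gbp2 had 0, 1 and 0 counts against 2, 1 and 1, with an interval of 0.50 to 249 that spans no change. Mx1, a GTPase that blocks influenza virus, had no count in control and 0, 4 and 0 counts with esculetin. These intervals cover counting error only.

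On the called side of the threshold, Tor3a had 110, 114 and 112 CPM in control cells and 105, 158 and 199 CPM with esculetin (adjusted p = 0.0410), and its groups overlapped. Oasl1 had 7.46, 7.91 and 9.34 CPM and then 8.93, 13.6 and 21.0 CPM (adjusted p = 0.0155), again with overlap. The call of Tor3a was lost when any 1 cell library other than esculetin replicate 1 was left out (adjusted p 0.0738 to 0.169). That of Oasl1 was not called without control replicate 1 (adjusted p = 0.0718) or without esculetin replicate 3 (adjusted p = 0.0658).

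The esculetin cell libraries were not alike. Replicate 1 was the lowest of the 3 for 38 of the 39 tested genes, and for 35 of the 36 that rose. Over all 3812 genes that rose in the cells it was the lowest in 54.1%. Replicate 3 was the highest for 26 of the 36 that rose, and for 51.7% of all genes that rose. The median log2 ratio of the 39 genes to the control mean, with 0.1 CPM added, was 1.49 in replicate 1, 2.12 in replicate 2 and 2.24 in replicate 3. Their summed level was 807 to 843 CPM in the control libraries and 1318, 2042 and 2211 CPM in the esculetin libraries. Without esculetin replicate 1 the median log2 fold change was 2.37, and Dhx58 was also called (adjusted p = 0.0284).

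**Figure D2:**
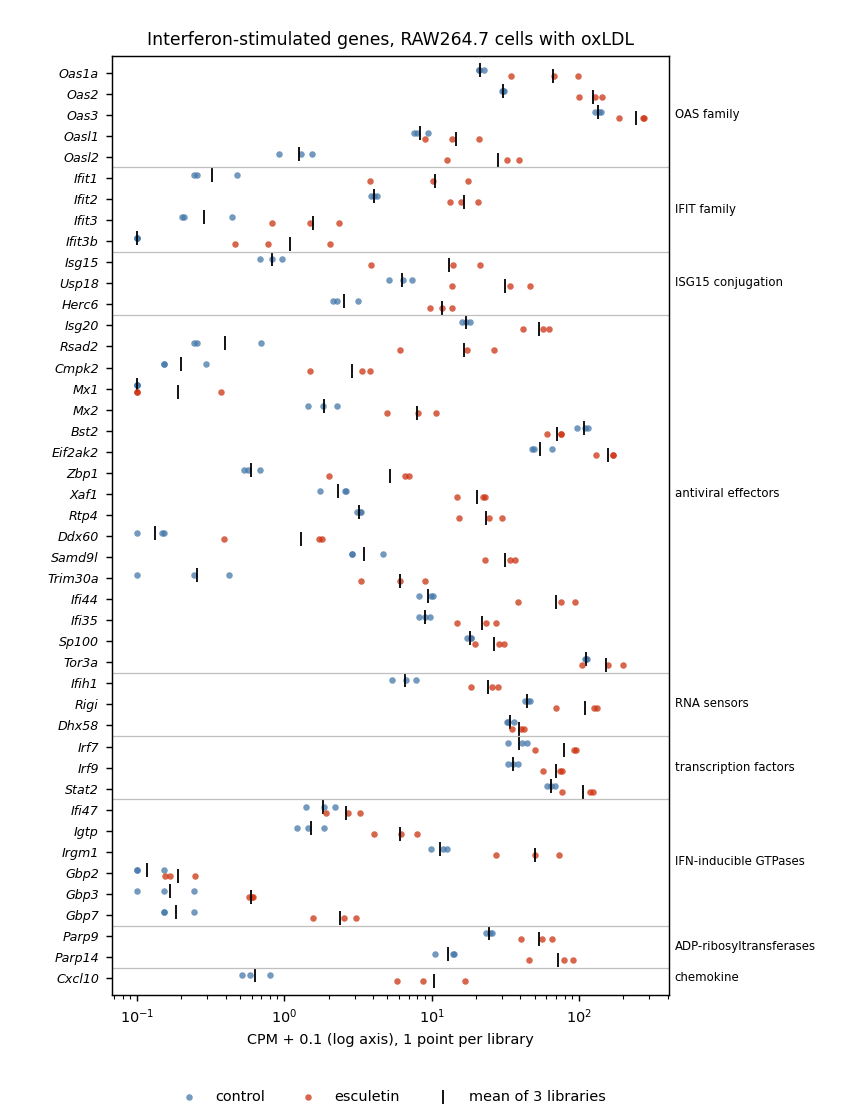
Levels of the 44 interferon-stimulated genes in RAW264.7 cells, as CPM with 0.1 added on a log axis, with 1 point for each of 6 libraries and a black tick for the mean of 3. Esculetin points lie to the right of control points for most genes, and Bst2 is the tested gene with the opposite order.

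A further 49 genes of the interferon pathway, listed by role, were read beside these. In the cells 35 were tested, of which 14 rose and 10 fell, beside 28.7% and 29.0% of all tested genes, so the share that fell was at the background. No ligand passed the filter. Ifnb1, interferon beta, had no count in any control library and 6, 16 and 10 counts with esculetin, at least 13.5-fold higher with a floor of 3 counts over the group. Ifna2 had 0, 2 and 0 counts with esculetin and none in control, and the other ligands of the list, Ifng among them, had none in any cell library. In all liver libraries Ifnb1 was at 0.

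The next counts per role are small and stand beside 28.7% of all tested genes that rose in the cells. Of 5 tested receptor chains 3 rose. Il10rb, shared by interferon lambda and interleukin 10, rose by a log2 fold change of 0.75. Ifngr2 rose by 0.33 (adjusted p = 0.0381) and Ifnar1 by 0.21 (adjusted p = 0.0471), both near the threshold. Of 3 tested kinases 1, Jak1, rose, by 0.56. Among 5 tested transcription factors of this list 2 rose, Irf5 and Irf3, by 0.46 and 0.35. For Irf1 the log2 fold change was 0.33 (adjusted p = 0.0536). Exons of Il10rb, Jak1, Irf5 and Irf3 overlap those of another protein-coding gene, so reads may be shared there.

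Of 11 tested sensing and adaptor genes 5 rose and 4 fell in the cells, where 28.7% of all tested genes rose and 29.0% fell. Tlr4, the receptor of bacterial lipopolysaccharide, had 28.4, 22.1 and 22.4 CPM in control and 69.5, 76.0 and 78.6 CPM with esculetin (log2 fold change 1.62, SE 0.12, adjusted p = 9.22e-07). Tlr7, an endosomal receptor of single-stranded RNA, went from 33.3, 25.0 and 26.7 CPM to 67.3, 72.2 and 74.8 CPM (log2 fold change 1.34, SE 0.12, adjusted p = 3.70e-06). Both stood clear of the controls in all 3 libraries. Ikbke, a kinase that activates Irf3 and Irf7, rose by 1.28, Tbk1, which does the same, by 0.39 and Ticam1, the adaptor of Tlr3 and Tlr4, by 0.34. Tlr9, a receptor of unmethylated DNA, had a log2 fold change of -0.92, Mavs, the adaptor of Rigi and Ifih1, one of -0.60, Traf3 one of -0.57 and Cgas, the sensor of cytosolic DNA, one of -0.50, and all 4 were called.

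Of the inhibitors, Socs3 had 7.57, 8.28 and 9.10 CPM in control and 34.0, 40.8 and 54.3 CPM with esculetin (log2 fold change 2.37, SE 0.17, adjusted p = 1.07e-06). Ptpn6, the phosphatase SHP-1, had 512, 565 and 561 CPM and then 306, 297 and 280 CPM (log2 fold change -0.89, SE 0.08, adjusted p = 5.35e-06). These moved in opposite directions, each without overlap. The phosphatases Ptpn2 and Ptpn1 had log2 fold changes of 0.36 and -0.33, and both were called. Among enzymes that clear or edit nucleic acid, Adar rose by 0.54 while Samhd1 had a log2 fold change of -0.68. All 3 subunits of ribonuclease H2, Rnaseh2a, Rnaseh2b and Rnaseh2c, fell, as did 29.0% of all tested genes. Rnaseh2a had 34.9, 39.3 and 40.1 CPM in control and 17.9, 15 and 15.7 CPM with esculetin (log2 fold change -1.24, SE 0.12, adjusted p = 6.49e-06). Exons of Adar and of each of these 3 subunits overlap those of another protein-coding gene, so reads may be shared there. Trex1 was listed at 0 in all 12 libraries. In annotation its exons overlap those of other genes.

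**Figure D3:**
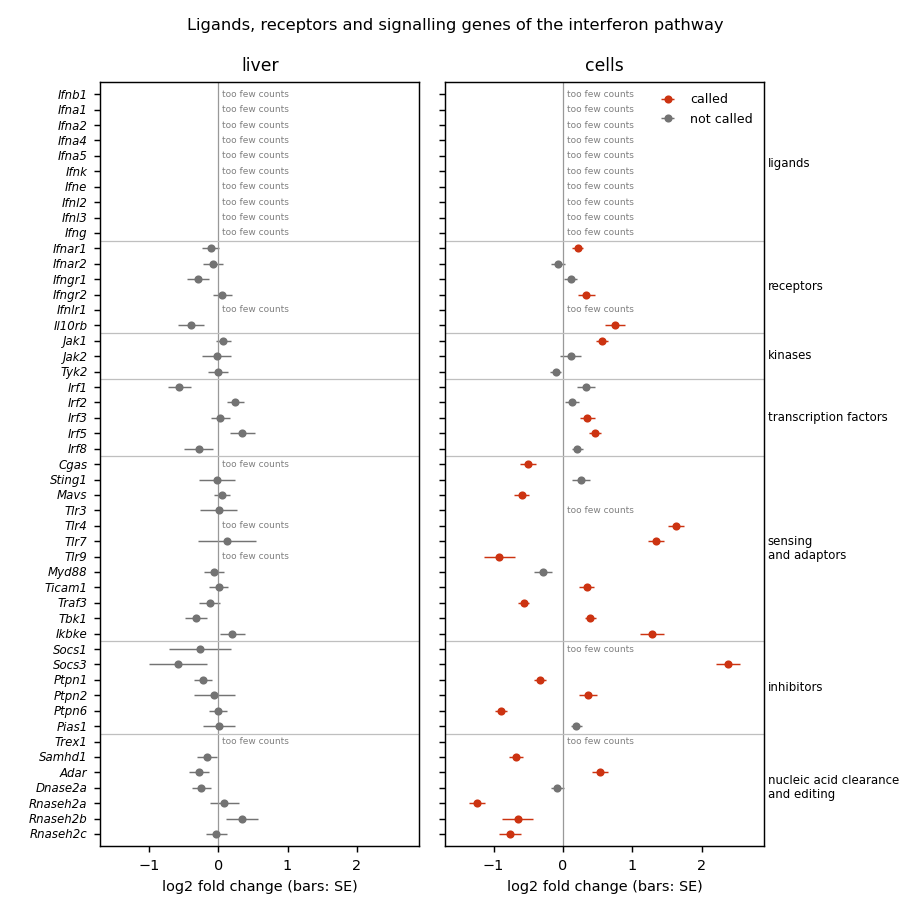
Log2 fold change with esculetin of 49 other genes of the interferon pathway, by role, in the liver (left) and the cells (right), with bars of 1 SE. Red points passed the test, which none did in the liver and 24 did in the cells, and genes with too few counts carry no point.

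In the liver the same 44 genes showed small differences, mostly downward. All 44 were tested and 40 had lower levels with esculetin, against 53.5% of 12813 tested genes, with a median log2 fold change of -0.27 against -0.02 over all. None was called by edgeR at an adjusted p under 0.05, a level reached by 0.0859% of all tested genes. At an unadjusted p under 0.05 there were 8 lower and 0 higher, against 4.98% of all genes lower. DESeq2 called 2, Rsad2 and Tor3a, and limma-voom called 0. The share of all genes that DESeq2 called was not counted. The study's thresholds, applied as in the cells, held for 3, against 2.39% of all genes lower. For 11 genes every esculetin library lay below every control library, against 7.95% of all. Fewer cells of a type and less RNA per cell cannot be told apart in these whole-liver samples. The 6 Kupffer cell markers summed to 345 to 421 CPM in the controls and 330 to 367 CPM with esculetin, with 5 of 6 lower, none called and none at 0. The 7 markers of monocytes and macrophages summed to 126 to 167 CPM in the controls and 136 to 143 CPM with esculetin. Of the 5 tested, 4 were lower and none was called. The part of both lists in the result was not tested. Without liver control replicate 1, 37 genes were lower, the median was -0.21 and none was called. Leaving it out turned 7 genes, of which Ifit1, Ifit2, Mx1, Samd9l and Gbp3 went above 0 and Oas3 and Ifi35 below, and moved 15 others by over 1.5 times.

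Tor3a had the smallest p in the liver, with 25.1, 16.5 and 20.7 CPM in the controls and 10.7 CPM in each of the 3 esculetin libraries (log2 fold change -0.95, SE 0.17, adjusted p = 0.0839). Rsad2 had 12.5, 12.0 and 10.2 CPM against 7.41, 5.71 and 6.41 CPM (log2 fold change -0.83, SE 0.18, adjusted p = 0.165). Cmpk2, next to it on chromosome 12, had 10.9, 11.7 and 10.3 CPM against 7.41, 8.96 and 8.61 CPM (log2 fold change -0.40, SE 0.16, adjusted p = 0.537). The groups of these 3 effectors did not overlap. Tor3a shares exon sequence on the opposite strand with Abl2, and the strand setting of the counting was not stated.

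Of the transcription factors, Stat2 had 75.4, 57.4 and 57.7 CPM in control livers and 45.4, 43.6 and 46.7 CPM with esculetin (log2 fold change -0.49, SE 0.13, adjusted p = 0.305). Irf7 had 60.9, 72.5 and 74.6 CPM against 61.4, 50.8 and 53.5 CPM (log2 fold change -0.33, adjusted p = 0.520), and Irf9 had 51.6, 53.1 and 56.9 CPM against 43.2, 49.0 and 46.7 CPM (log2 fold change -0.22, adjusted p = 0.636). Stat2 and Irf9 were lower in every esculetin library, while the groups of Irf7 overlapped by 1 library. The RNA sensors Ifih1, Rigi and Dhx58 had log2 fold changes of -0.31, -0.27 and -0.27. Ifih1 had 15.4, 12.0 and 11.2 CPM against 11.9, 9.74 and 9.32 CPM, and Rigi had 26.8, 21.9 and 19.3 CPM against 20.4, 19.9 and 15.9 CPM. Of these only Dhx58 did not overlap, at 17.4, 17.9 and 18.3 CPM against 13, 16.2 and 15.3 CPM.

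Oas2 had the most negative log2 fold change of the 44 in the liver, -1.08 (SE 0.41, adjusted p = 0.510), at 4.12, 1.73 and 1.98 CPM against 1.69, 1.10 and 0.841 CPM. Control replicate 1, which stood apart, was the high value, and without it the log2 fold change was -0.59, less negative than those of Tor3a at -0.79 and Rsad2 at -0.77. Oas1a had 4.05, 7.65 and 7.69 CPM against 6.21, 4.55 and 5.44 CPM, and Oasl1 had 21.2, 20.3 and 28.7 CPM against 22.6, 22.6 and 18.2 CPM. The groups of both overlapped. All 4 IFIT genes had negative log2 fold changes with overlap, from -0.46 for Ifit1 to -0.11 for Ifit3b. Ifit1 had 8.97, 3.31 and 4.66 CPM against 4.52, 3.77 and 3.95 CPM, again with control replicate 1 the highest. Without that library the log2 fold changes of Ifit1 and Ifit2 were 0.05 and 0.004. Ifit3 had 15.2, 15.4 and 26.0 CPM against 16.1, 15.3 and 14.9 CPM, and Ifit2 had 3.07, 1.53 and 2.33 CPM against 2.29, 1.36 and 2.07 CPM. Of the ISG15 group, Usp18 did not overlap, at 11.9, 13.3 and 18.6 CPM against 11.7, 10.1 and 11.8 CPM (log2 fold change -0.39, adjusted p = 0.623). Isg15 had 12.0, 13.6 and 17.2 CPM against 12.2, 10.7 and 12.0 CPM, and Herc6 had 2.64, 1.73 and 1.69 CPM against 1.96, 1.75 and 1.29 CPM. Both overlapped.

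Among the GTPases, Igtp had 37.2, 32.0 and 39.6 CPM against 29.5, 25.2 and 28.9 CPM (log2 fold change -0.38, SE 0.13, adjusted p = 0.472), and Irgm1 had 71.9, 64.3 and 70.6 CPM against 60.5, 54.1 and 58.4 CPM (log2 fold change -0.26, SE 0.11, adjusted p = 0.573). Neither overlapped. Ifi47 had the highest log2 fold change of the 44 in the liver, 0.33 (SE 0.15, adjusted p = 0.597), at 29.4, 32.5 and 38.0 CPM against 43.5, 34.3 and 47.5 CPM. Oas3, Zbp1 and Ifi35 were the other 3 genes above 0, and with scaling by library size alone Ifi35 had a negative value. Cxcl10 had 4.67, 3.75 and 4.89 CPM against 4.36, 2.53 and 2.52 CPM (log2 fold change -0.49, adjusted p = 0.653), and the groups overlapped. Parp9 had 43.5, 37.9 and 32.5 CPM against 36.7, 34.2 and 30.5 CPM, and Parp14 had 20.9, 18.6 and 20.5 CPM against 17.5, 15.5 and 19.2 CPM. Their log2 fold changes were -0.17 and -0.20, with overlap in both.

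Of the 49 other pathway genes, 34 were tested in the liver and edgeR, DESeq2 and limma-voom called 0. At an unadjusted p under 0.05 there was 1 lower, Irf1, and 0 higher, against 4.98% of all tested genes lower. Irf1 had 27.4, 21.7 and 28.1 CPM against 20.0, 18.3 and 14.1 CPM (log2 fold change -0.56, adjusted p = 0.340). Every esculetin library of Irf1 lay below every control library, as was so for 7.95% of all tested genes.

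**Figure D4:**
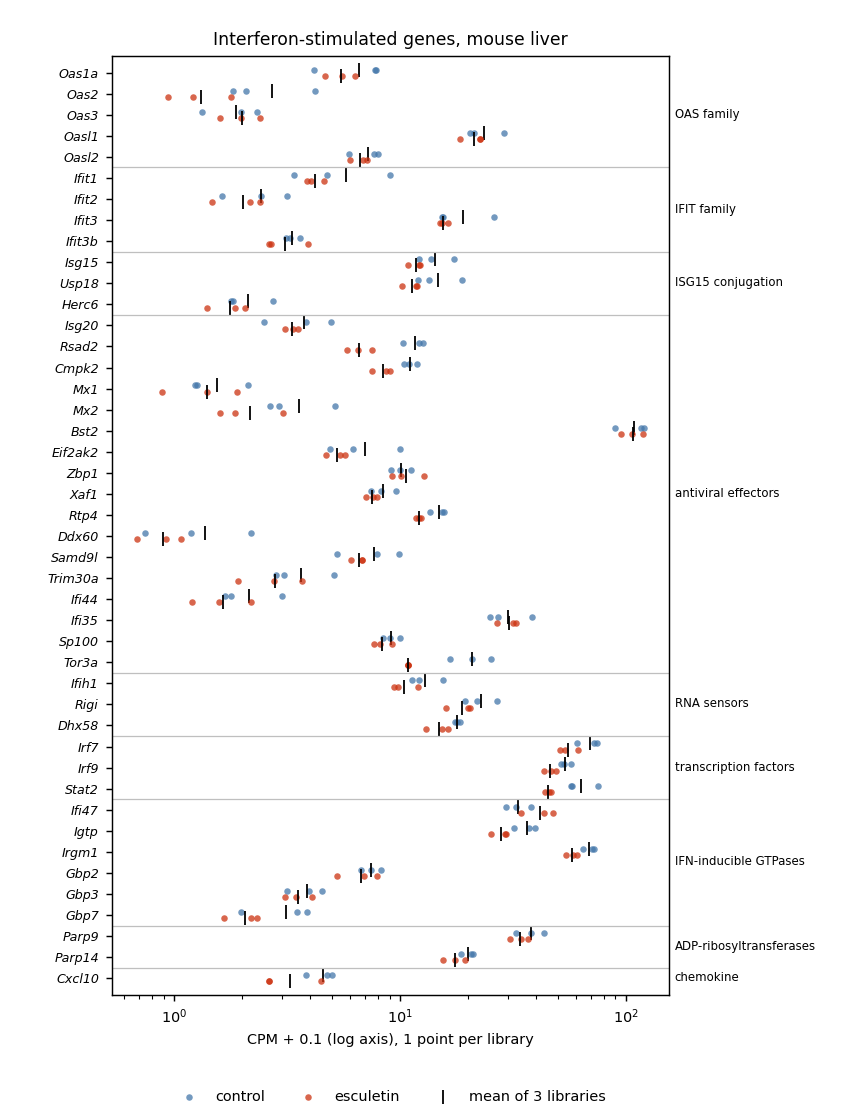
Levels of the 44 interferon-stimulated genes in mouse liver, as CPM with 0.1 added on a log axis, with 1 point for each of 6 libraries and a black tick for the mean of 3. The groups lie close together, with the mean of esculetin a little to the left for most genes and 11 genes without overlap.

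The effects of esculetin in the cells and in the liver were set against each other in 1 edgeR fit of all 12 libraries. That fit used 1 estimate of the spread per gene for liver and cells together, so its p-values rest on a pooled spread. The effect in the cells lay above that in the liver for 37 of the 44 genes, against 13.4% of 15709 tested genes, and below it for 1, Bst2, against 13.7%. The log2 difference of Rsad2 was 6.56 (adjusted p = 5.5e-06), from log2 fold changes of 5.80 in the cells and -0.83 in the liver. For Stat2 the difference was 1.17 (adjusted p = 0.0010) and for Tor3a 1.37 (adjusted p = 0.0013). Oas3, Mx1, Sp100, Dhx58, Ifi47 and Gbp2 did not pass this test. Liver and cells also differ in cell makeup, diet, oxLDL, dose and length of exposure, and these cannot be told apart from the tissue.

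**Figure D5:**
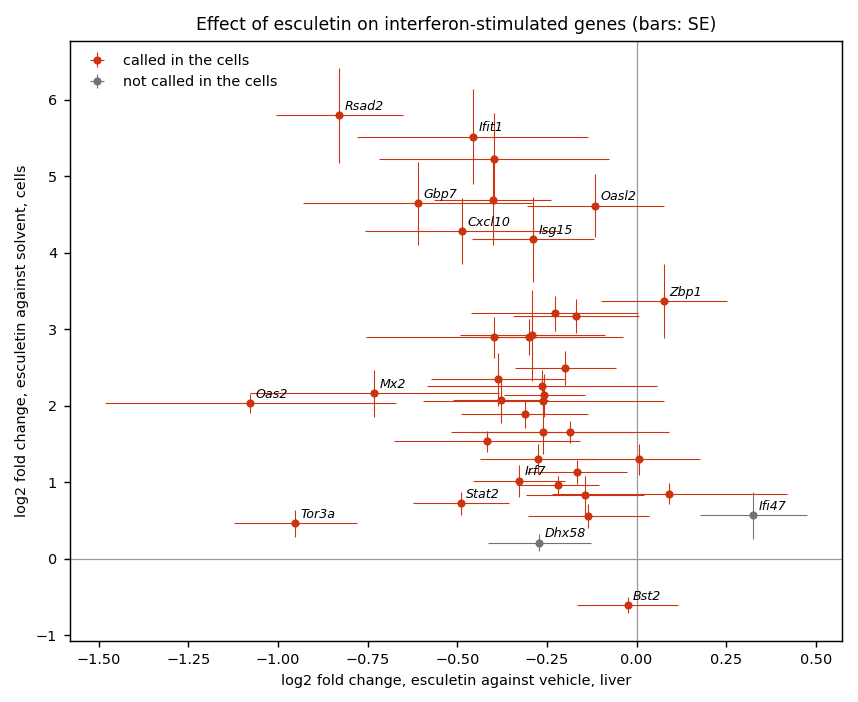
Log2 fold change with esculetin in the liver (horizontal) and in the cells (vertical) for the 39 interferon-stimulated genes tested in both, with bars of 1 SE. Most points sit above 0 in the cells and below 0 in the liver, and Bst2 alone lies below 0 in the cells.

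The genes were also read by whether they held the response element core. Genes without it had no exact match from 250 bases before to 50 bases after 1 annotated start. Other positions and other starts were not searched. In the cells 18 of 21 tested genes with the core rose, with a median log2 fold change of 2.14. Without it 18 of 18 rose, with a median of 2.07. Of the 8 genes that passed the filter only through the esculetin libraries, all but Cmpk2 held the core. These 8 had to differ, so the counts and medians of the cells do not compare the sets evenly. In the liver the medians were -0.30 with the core and -0.21 without. By position, 20 of the 44 genes lay in 8 clusters whose members are within 500000 bases of each other. The Ifit cluster on chromosome 19 (34527932 to 34632174 in GRCm39) held Ifit2, Ifit3, Ifit3b and Ifit1. Another on chromosome 5 (120868398 to 121046449) held Oas2, Oas3 and Oas1a, whose log2 fold changes in the cells were 2.03, 0.85 and 1.65. Per kilobase of exon in control livers, Bst2 led with 89.7 RPKM, followed by Irf7 with 18.3 and Isg15 with 18.2 RPKM.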

How the data were processed

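RNA-seq counts were analysed from 12 libraries. The authors deposited unnormalized counts of reads per gene, made from paired 150-base reads of NEBNext libraries aligned to GRCm39 with HISAT2 2.2.1 and counted with featureCounts. The annotation release, strandedness and treatment of reads with several positions are not given in the sources used here, so genes that share sequence or exons are uncertain. Symbols, starts and promoter sequence came from GENCODE vM39 on GRCm39.

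The main test was glmQLFTest of edgeR 4.0.16 in R 4.3.3, fitted to each table alone (filterByExpr, TMM, treatment only). Two-sided p-values were adjusted (Benjamini-Hochberg) over every tested gene, with calls at 0.05, and SE was taken from the F statistic. The cells minus liver difference came from a 4-group fit. With 3 against 3 libraries an exact permutation test cannot give a p under 0.1. DESeq2 1.42.0 and limma 3.58.1 were alternatives, as were other scalings, filters, a replicate block and leaving out each library. The scripts were tested on simulated data. Ratios of low counts have exact 95% intervals, and shares have Clopper-Pearson intervals. Within groups, no 2 libraries agreed within sampling noise (chi-square per degree of freedom at least 2.82).

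The genes and lists were chosen with earlier results of these data known. All 44 genes could be named. Values per library were given for the 3 genes of each role with the smallest p in a table, and for genes near the threshold, against the majority or too low to test. Called pathway genes were named. Ifnb1, Ifna2, Ifng, Irf1 and Trex1 were named outside this rule after their values were seen. Marker lists were read only as sums, calls and zeros. Of these lists, those of hepatocytes, Kupffer cells, and monocytes and macrophages are given. One gene of the pathway list is not reported here and was left out of its counts.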

Additional observations from a re-analysis of the deposited data

Results flagged for a closer look

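For 38 of the 44 genes the effect of esculetin differed between the cells and the liver by the test of that difference in edgeR (adjusted p under 0.05). Over all 15709 tested genes the effect in the cells lay above that in the liver for 13.4% and below it for 13.7%. Each value here is the log2 fold change in the cells minus that in the liver. In the OAS family it was 1.87 for Oas1a, 3.04 for Oas2, 0.93 for Oasl1 and 4.68 for Oasl2. In the IFIT family it was 5.91 for Ifit1, 2.27 for Ifit2, 3.15 for Ifit3 and 6.73 for Ifit3b. In the ISG15 group it was 4.41 for Isg15, 2.68 for Usp18 and 2.47 for Herc6. Among the other antiviral effectors it was 1.80 for Isg20, 6.56 for Rsad2, 5.02 for Cmpk2, 2.84 for Mx2, 1.90 for Eif2ak2 and 3.24 for Zbp1. It was further 3.30 for Xaf1, 3.15 for Rtp4, 5.42 for Ddx60, 3.39 for Samd9l, 5.56 for Trim30a and 3.24 for Ifi44. The remaining values were 1.25 for Ifi35 and 1.37 for Tor3a. Among the RNA sensors it was 2.16 for Ifih1 and 1.53 for Rigi. Of the transcription factors it was 1.30 for Irf7, 1.13 for Irf9 and 1.17 for Stat2. Of the GTPases it was 2.42 for Igtp, 2.35 for Irgm1, 2.77 for Gbp3 and 5.17 for Gbp7. Of the ADP-ribosyltransferases it was 1.25 for Parp9 and 2.65 for Parp14. For the chemokine it was 4.71 for Cxcl10. Bst2 was the only gene with a negative value, -0.63, among those that passed. The value of Ifit3b rests on control cells with no count, so it depends on the prior count of the fit and is no bound. Ddx60 and Gbp3 rest on 2 and 4 counts in the control cells. The liver and cell libraries came from separate experiments, which cannot be told apart from the tissue.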

How the results depend on the processing

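The liver result of 0 genes called depended on the setting. It was 3 with no filter on low counts (Rsad2, Tor3a and Stat2). With DESeq2 it was 2, as with a replicate block (Rsad2 and Tor3a in both). By the study's thresholds on limma-voom p-values it was 3, and the cause was not tested. Shares of all genes called with no filter, DESeq2 or the block were not counted, so those counts have no background beside them. Other pathway genes called in the liver went from 0 to 1 with no filter. In the cells, pathway genes called went from 24 to 12 by those thresholds, which changes the tool, the p-value and the fold limit together. Without 1 library at a time, 35 to 40 genes were called in the cells, 38 to 40 were higher and the median log2 fold change was 1.87 to 2.37. In the liver 37 to 42 were lower, with a median of -0.34 to -0.21 and 0 called in each. Pathway genes called in the cells were 18 to 25 and genes whose effects differed 36 to 40. The call of Tor3a in the cells was also lost with library size only and with limma-voom. No gene that was called changed direction under these settings. The stricter response element form lowered its share from 54.5% to 29.5%.

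Whether the replicate numbers pair the libraries could not be decided with 3 libraries per group. The correlations of same-numbered deviations were 0.14, -0.0053 and 0.10 in the liver and 0.16, -0.030 and 0.080 in the cells. Those of differently numbered libraries were -0.15 to 0.089 in the liver and -0.17 to 0.11 in the cells. With the replicate block 37 genes were called in the cells and 38 effects differed. Counts near 0 limit Mx1, Gbp2, Gbp3, Ddx60 and Ifit3b in the cells.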
